A study of Mus musculus with 4 samples.

Results

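The mitochondrial carrier family (the Slc25 genes with the uncoupling protein genes Ucp1, Ucp2 and Ucp3) was examined for changes in open chromatin in mouse intestinal organoids. Members were taken by symbol from the protein-coding genes of RefSeq on GRCm38.p6, the assembly that mm10 denotes: Slc25a plus a number, and the 3 Ucp genes. This gave 50 of 21887 protein-coding genes. Carriers of this family sit mostly in the inner mitochondrial membrane and exchange nucleotides, phosphate, amino acids, carboxylates, cofactors and iron between the cytosol and the matrix. In absorptive enterocytes, mitochondria supply ATP for nutrient uptake, burn glutamine and fatty acids and take part in citrulline and haem synthesis, and each of these routes passes through carriers of the family.

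Open chromatin was mapped by ATAC-seq, in which the Tn5 transposase cuts accessible DNA and the released fragments are sequenced. The libraries came from organoids grown from crypts of the upper small intestine (labelled jejunum) of C57BL/6J mice. Each library was made from 30000 cells. The 72 h organoids had been moved for 72 h into a medium with epidermal growth factor and R-spondin but without CHIR99021 (a GSK3 inhibitor), valproic acid (a histone deacetylase inhibitor) and Noggin (a BMP antagonist), with BMP2 added at 100 ng/mL. The 0 h organoids stayed in the medium with all of these factors and without added BMP2. BMP2 and the change of medium therefore cannot be told apart. Libraries of 24 h and 48 h are not analysed here. The series asks how accessibility changes over the time of BMP exposure. Each time point has 1 library, which leaves the differences below without replicates and without a test. Intervals are exact Clopper-Pearson 95% intervals and cover counting error only.

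The peak lists hold positions with no heights, counts or scores, so the read depth is unknown. A peak here is a summit with 300 bases on either side, as listed at a p-value threshold of 1e-05, and a strict peak also passed 1e-10. The 1e-05 lists held 41343 peaks at 72 h and 35857 at 0 h, of which 37726 and 32997 were assigned to a gene. Each peak went to the gene that holds its midpoint, or else to the nearest gene within 50 kb. It is called shared when a 1e-05 peak of the other library overlapped it by at least 1 bp, and otherwise 72 h-only or 0 h-only. A gene-end peak has its midpoint at most 1 kb from the first or last base of any protein-coding gene. All others are called distal, including those at starts that lie inside a gene. All 9 epithelial marker genes that were checked, Cdx2, Vil1 and Epcam among them, had a peak at a gene end in both libraries. Of 9 markers of immune, endothelial, fibroblast and muscle cells, 2 had one at 72 h (Col1a1 and Myh11) and 1 at 0 h (Col1a1). The part of such cells in the results was not tested.

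The starts of most carrier genes were open, and they were open in both libraries. RefSeq start windows were found for 39 of the 50 members. A peak summit lay within 1 kb of a listed start at 30 members at 72 h and at 31 members at 0 h, and these include the same 30. Slc25a53, an X-linked member whose substrate is not well established, made the difference: its start had a 0 h peak that passed only 1e-05, and no 72 h peak. The start was called in neither library at 8 members: Slc25a18, Slc25a21, Slc25a31, Slc25a43, Slc25a47, Slc25a54, Ucp1 and Ucp3. No start window was matched for 11 members, among them Slc25a2, Slc25a26, Slc25a27, Slc25a32, Slc25a35, Slc25a37, Slc25a41, Slc25a44, Slc25a46 and Slc25a51; of these, Slc25a2 and Slc25a41 had no peak at either gene end, and the others had one in both libraries. Counted over all 50 members, 40 at 72 h and 41 at 0 h had a peak at 1 or both gene ends. Of all 17492 genes with a start window, 9920 had a start called in either library. A peak of either library was assigned to 86.0% of members and 69.7% of all genes. The shares were 82.2% of Slc genes outside the family and 93.0% of oxidative phosphorylation subunit genes.

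Start windows are shown for a pair of adjacent members of which 1 was open and the other was not, for a second such pair, and for the members with the fewest CpG dinucleotides at an open start and with a start called at 0 h alone. Each RefSeq window (GRCm38.p6) runs 5′ to 3′ along the gene, with 250 bases before the start and 50 bases from it, and capitals mark CpG dinucleotides. Ucp3 and Ucp2, 6.91 kb apart, read as follows. Ucp2 (chr7:100493108-100493407, plus strand) was open in both libraries and holds 21 CpG; Ucp3 (chr7:100472741-100473040, plus strand) was called in neither and holds 5.
Ucp2: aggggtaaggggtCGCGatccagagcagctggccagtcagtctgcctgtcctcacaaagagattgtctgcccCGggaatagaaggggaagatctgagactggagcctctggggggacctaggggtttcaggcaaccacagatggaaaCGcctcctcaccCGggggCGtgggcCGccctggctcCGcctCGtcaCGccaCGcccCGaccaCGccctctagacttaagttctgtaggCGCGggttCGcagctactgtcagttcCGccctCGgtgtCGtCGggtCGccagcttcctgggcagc
Ucp3: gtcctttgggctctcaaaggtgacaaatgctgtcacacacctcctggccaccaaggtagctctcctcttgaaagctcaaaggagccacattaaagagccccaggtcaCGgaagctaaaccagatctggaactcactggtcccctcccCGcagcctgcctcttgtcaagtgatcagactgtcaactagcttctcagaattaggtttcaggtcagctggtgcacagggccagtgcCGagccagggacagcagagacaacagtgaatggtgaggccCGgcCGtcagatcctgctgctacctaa
Slc25a5 and Slc25a43 lie 18.3 kb apart on the X chromosome. Slc25a5 (chrX:36795347-36795646, plus strand), open in both libraries, holds 18 CpG. Slc25a43 (chrX:36743382-36743681, plus strand), called in neither, holds 11.
Slc25a5: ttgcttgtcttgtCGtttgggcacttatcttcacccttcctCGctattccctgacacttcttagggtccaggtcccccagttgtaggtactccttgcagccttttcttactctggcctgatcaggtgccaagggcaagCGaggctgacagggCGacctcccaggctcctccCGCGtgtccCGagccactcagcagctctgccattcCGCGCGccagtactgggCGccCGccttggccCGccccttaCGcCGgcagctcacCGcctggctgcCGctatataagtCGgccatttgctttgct
Slc25a43: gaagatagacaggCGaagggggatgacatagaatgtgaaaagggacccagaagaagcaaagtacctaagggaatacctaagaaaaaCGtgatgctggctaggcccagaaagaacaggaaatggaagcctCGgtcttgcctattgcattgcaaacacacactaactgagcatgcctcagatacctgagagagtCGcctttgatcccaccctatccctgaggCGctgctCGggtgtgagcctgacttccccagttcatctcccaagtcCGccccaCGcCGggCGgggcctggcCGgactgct
Slc25a34 (chr4:141623785-141624084, minus strand) holds 1 CpG, the fewest of the open starts, and its start peak passed 1e-10 at 72 h but only 1e-05 at 0 h. Slc25a53 (chrX:137038253-137038552, minus strand) holds 16.
Slc25a34: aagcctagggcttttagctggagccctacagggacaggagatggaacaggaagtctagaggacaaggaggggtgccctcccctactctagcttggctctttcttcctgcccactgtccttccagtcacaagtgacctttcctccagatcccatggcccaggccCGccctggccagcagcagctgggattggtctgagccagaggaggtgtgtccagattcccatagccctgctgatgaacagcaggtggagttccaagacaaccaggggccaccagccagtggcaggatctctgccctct
Slc25a53: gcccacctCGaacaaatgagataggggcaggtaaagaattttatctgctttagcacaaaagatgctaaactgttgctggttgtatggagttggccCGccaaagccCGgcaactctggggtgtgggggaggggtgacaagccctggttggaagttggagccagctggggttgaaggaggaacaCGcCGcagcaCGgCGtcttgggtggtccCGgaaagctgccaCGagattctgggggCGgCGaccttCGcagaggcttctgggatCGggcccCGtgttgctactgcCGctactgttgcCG

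CpG dinucleotides were more frequent at the carrier starts that were open. Over the 31 members whose start was called in either library, the windows held 1 to 47 CpG with a median of 19, and over the 8 called in neither they held 4 to 22 with a median of 9. The ranges overlap, with Slc25a31 (22 CpG, called in neither) above the median of the open starts. GC content had medians of 61.0% and 54.9% in the same order. Among all 17492 genes with a window, medians were 22 CpG at the 9920 starts called in either library and 3 at the 7572 called in neither, and the median of the closed carrier starts lay above that of all closed starts. For a gene with several listed starts, the most upstream one was used.

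**Figure D1:**
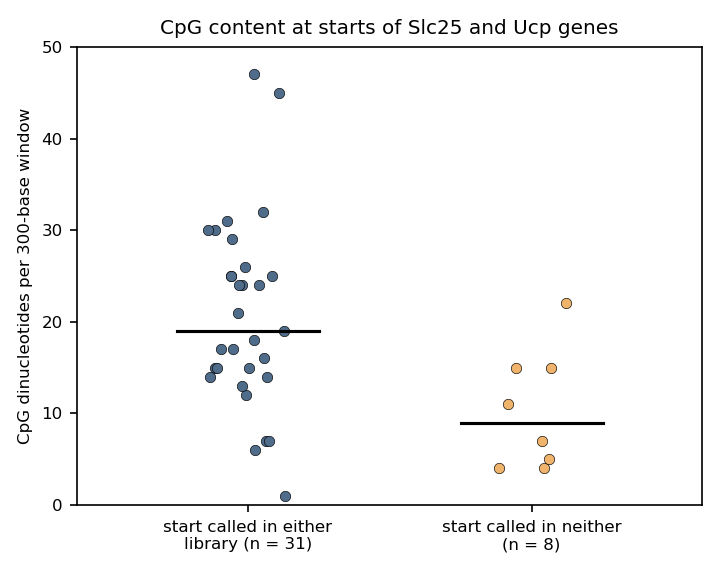
CpG dinucleotides in the 300-base RefSeq start window of each of 39 members (points), with the start called in either library (left, n = 31) or in neither (right, n = 8); horizontal lines are medians, and the horizontal spread of points carries no value. The medians are 19 and 9, and the ranges overlap.

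Motifs were searched on both strands of the same windows. The ETS core CCGGAAG lay in 7 of 39 members (17.9%, against 11.9% of all windows): Slc25a3, Slc25a4, Slc25a17, Slc25a20, Slc25a25, Slc25a38 and Slc25a54. Among open starts it lay in 6 of 31 members (19.4%) and in 1881 of 9920 genes. The E-box CACGTG lay in 6 members (15.4%, against 7.91%): Slc25a1, Slc25a13, Slc25a14, Slc25a31, Slc25a33 and Slc25a36. Among open starts the E-box shares were 16.1% and 10.5%. The NRF1 core GCATGCGC, a motif known from nuclear genes of mitochondrial proteins, was found in Slc25a31 and Slc25a54 only (5.13%, against 3.61%), and both of these starts were closed. The YY1 core AAGATGGC lay in Slc25a3 alone (2.56%, against 3.21%). The GC-rich SMAD element GGCGCC lay in 5 members (12.8%, against 15.4%), and the palindromic element GTCTAGAC in none (0.212% of all windows). The HNF4 core CAAAGTCCA (0.417%) and the part AGGTCAAAG of a direct repeat bound by HNF4 and PPAR (0.389%) lay in no member. The shorter CAAAGT, which lies within the HNF4 core, lay in 6 (15.4%, against 13.4%). A GATA-factor motif, AGATAA, was present at 5.13% of members and 9.94% of all windows. The CDX core TTTATG was present at 10.3% and 10.2%. The TCF core CTTTGAA was present at 2.56% and 4.74%. For the AP-1 site TGANTCA the shares were 5.13% and 7.03%. Among open starts the order was the other way for AGATAA (6.45% of members and 5.89% of all genes) and for TGANTCA (6.45% and 4.49%), on 2 members each. The order also turned for the NRF1 core, which lay at 0 of 31 open member starts and at 551 of 9920 open starts of all genes (5.55%). For GGCGCC the open-start shares were 12.9% and 23.2%. These matches describe letters in the windows and not binding.

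Away from the starts, more sites were listed at 72 h. Members carried 56 gene-end peaks at 72 h and 55 at 0 h, but 65 distal peaks at 72 h and 43 at 0 h. Over all genes the pattern was similar, with 13920 gene-end peaks at 72 h and 14174 at 0 h, and 23806 and 18823 distal peaks. In all, members had 121 peaks at 72 h and 98 at 0 h. The ratio of 1.23 compares with 1.14 over all genes. Of these peaks, 83 at 72 h and 60 at 0 h were strict, and here the ratio was 1.38, against 1.24 over all genes. Merged where they overlap, the peaks form 100 sites at 72 h and 85 at 0 h. The number of peaks was higher at 72 h at 19 members, lower at 6 and equal at 18. This count was not made over all genes, which had more assigned peaks at 72 h (37726) than at 0 h (32997). The other 7 members had no peak (Slc25a2, Slc25a18, Slc25a31, Slc25a41, Slc25a43, Ucp1 and Ucp3). These 7 include the brown fat uncoupling protein gene Ucp1, the testis ADP/ATP carrier gene Slc25a31 and the muscle-rich Ucp3. In a bulk culture, a change in the share of cells with an open site and a change within each cell cannot be told apart.

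**Figure D2:**
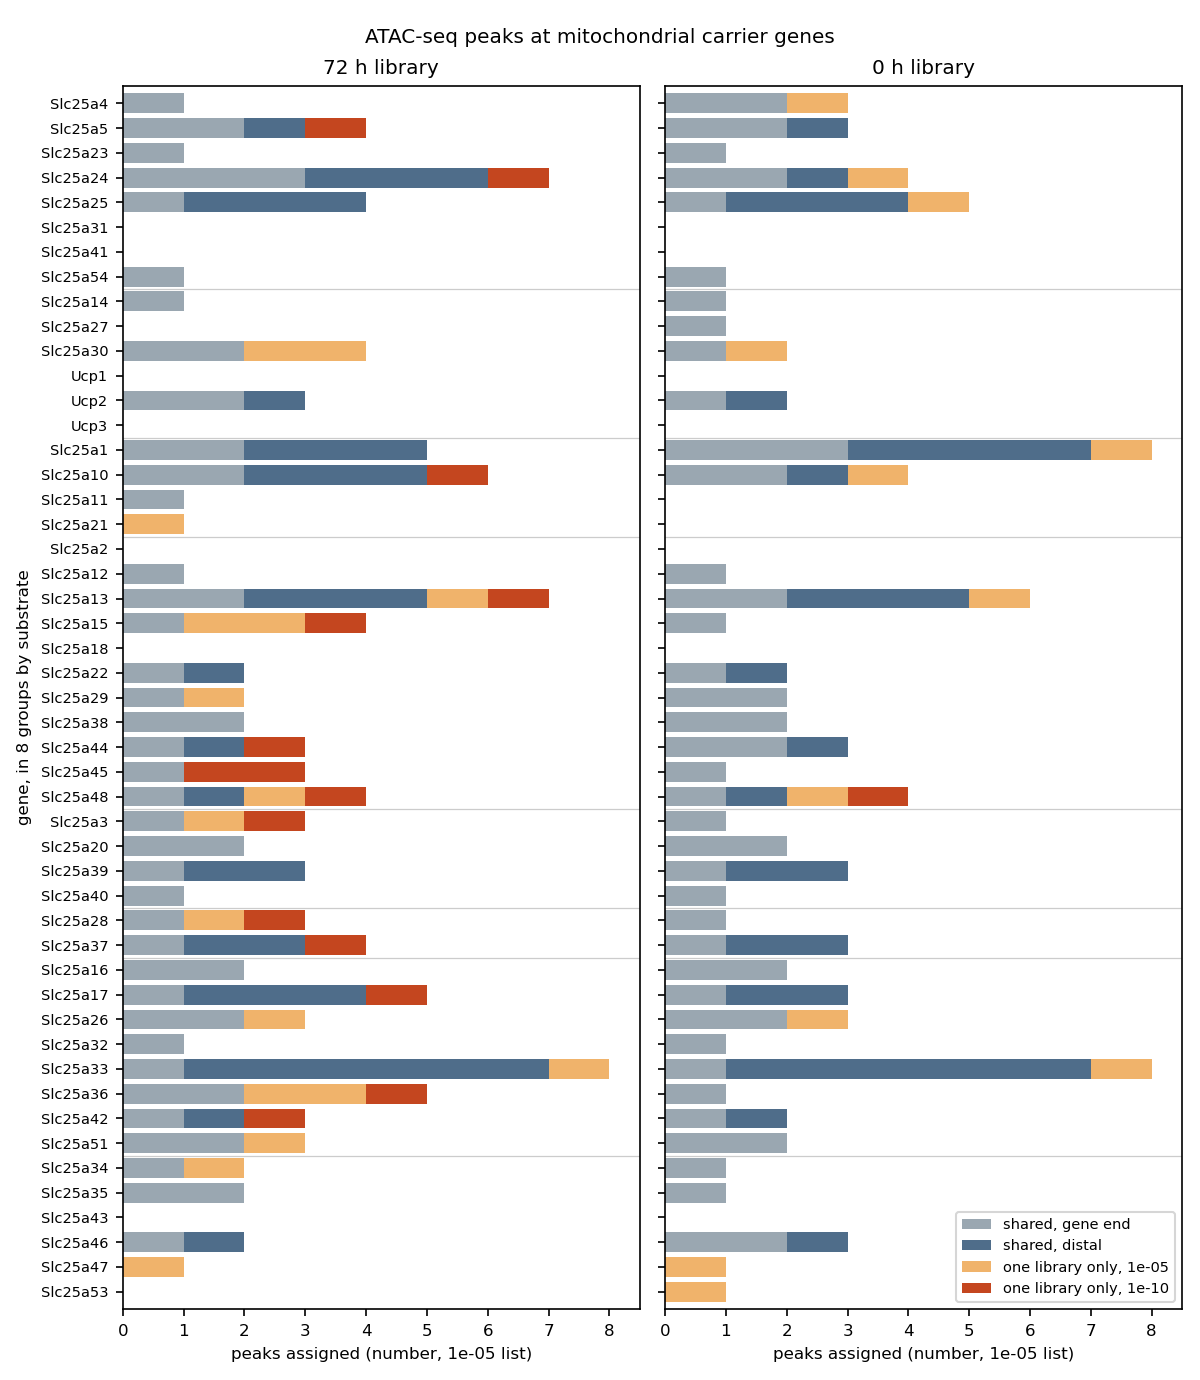
Number of 1e-05 peaks assigned to members of the family (rows, in 8 groups by substrate; 1 member is not shown) in the 72 h library (left) and the 0 h library (right); grey and blue parts are shared peaks at gene ends and distal, and orange and red parts are peaks of that library only that passed 1e-05 only or 1e-10. Red appears at 14 members at 72 h and at 1 (Slc25a48) at 0 h, and the 7 members with no bar in either panel have no peak.

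Of the 43 members with a peak, 22 had at least 1 72 h-only peak (51.2%, 35.5 to 66.7), where the same held for 39.9% of all 15263 genes with a peak. A 0 h-only peak was present at 12 members (27.9%, 15.3 to 43.7), against 29.7% of all genes. With strict peaks, 14 members had a 72 h-only one (32.6%, 19.1 to 48.5; 18.6% of all genes) and 1 member a 0 h-only one (2.33%, 0.0589 to 12.3; 6.66% of all genes). Members had more peaks per gene than genes at large, 2.81 against 2.47 at 72 h and 2.28 against 2.16 at 0 h, and a gene with more peaks can be counted on more of them. Counted per peak, the distal shares at 1e-05 lay near those of all genes. Of distal peaks at 72 h, 30 of 65 were 72 h-only (46.2%, 33.7 to 59.0), against 42.3% over all genes. Of the same 65 peaks, 15 were strict and 72 h-only (23.1%, 13.5 to 35.2), against 15.4% over all genes. At 0 h, 12 of 43 distal peaks were 0 h-only (27.9%, 15.3 to 43.7), against 27.5%. At gene ends the shares lay below those of all genes, on counts of 2 and 1. There 2 of 56 peaks at 72 h were 72 h-only (3.57%, 0.435 to 12.3; 6.31% over all genes), and 1 of 55 at 0 h was 0 h-only (1.82%, 0.046 to 9.72; 9.17% over all genes).

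Other solute carriers and the respiratory chain genes were counted in the same way. The 326 Slc genes outside the family, many of which act at the plasma membrane, had 267 of 606 distal 72 h peaks at 72 h only (44.1%, 40.1 to 48.1). At gene ends their share was 16.2% (11.6 to 21.7, 36 of 222), above that of the carrier family, with intervals that overlap. The 86 oxidative phosphorylation subunit genes had 38.0% (24.7 to 52.8) of 50 distal 72 h peaks at 72 h only and 1.33% (0.0338 to 7.21) of 75 gene-end peaks. They carried fewer peaks, 1.56 per gene at 72 h, and 9 of 80 with a peak had a strict 72 h-only one (11.2%, 5.28 to 20.3), against 14 of 43 carriers. Of the other Slc genes with a peak, 75 of 268 had one (28.0%, 22.7 to 33.8). Per distal 72 h peak, the strict 72 h-only share was 22.0% for subunit genes, 23.1% for carriers and 16.7% for other Slc genes. None of these differences was tested.

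**Figure D3:**
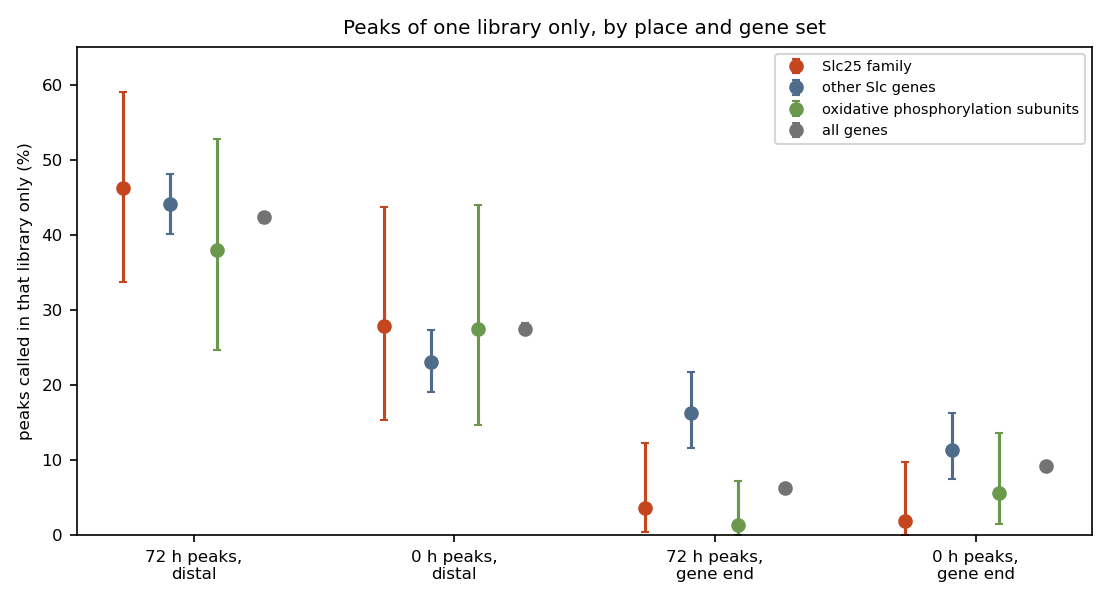
Share of the 1e-05 peaks of 1 library that no peak of the other library overlapped, for distal and gene-end peaks of each library, in the Slc25 family, other Slc genes, oxidative phosphorylation subunit genes and all genes (points), with exact 95% intervals for counting error (bars). The family lies at 46.2% for distal 72 h peaks and at 3.57% for gene-end 72 h peaks.

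All 15 strict 72 h-only peaks of the family were distal. They formed 15 separate sites at 14 genes, 10 inside the gene and 5 outside, and no other member had one. Among members with a listed start, the nearest such site stood 3.54 kb from it. A count of 0 at gene ends among 15 allows a share of up to 21.8%, and over all genes the share was 6.76% (265 of 3921). Each of the 15 peaks is also in the authors' own list of regions enriched at 72 h, which holds no other peak of the family. All 4534 regions of that list are strict 72 h peaks. The list thus draws on the same calls, and the match is not separate evidence. The single strict 0 h-only peak lay 8.67 kb outside Slc25a48.

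Carriers of amino acids and related amines, Slc25a48 among them, are the largest group by number of genes. Of 11 members, 9 had a peak and 5 a strict 72 h-only peak, where 18.6% of all genes with a peak had one. These were 6 of the 28 peaks of the group at 72 h, against 10.4% of peaks over all genes. The group had 17 distal peaks at 72 h and 9 at 0 h, where all genes had 23806 and 18823. Slc25a15, the ornithine carrier of the urea cycle and of citrulline synthesis, had 4 peaks at 72 h and 1 at 0 h. The 0 h peak lay at its start, 34 bp from the gene end, and was matched at 72 h. The other 3, the strict one among them (chr8:22390618-22391218), overlapped each other and formed 1 site inside the gene, 7.70 kb from the gene end. The nearest 0 h summit stood 7.74 kb away.

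Slc25a45 had 3 peaks at 72 h and 1 at 0 h, and was the only member with 2 strict 72 h-only peaks. They lay 3.57 kb inside the gene (chr19:5881067-5881667) and 1.64 kb outside it (chr19:5887106-5887706). The outer site is nearer to the start of Tigd3 (6.72 kb) than to that of Slc25a45 (9.58 kb). Its start peak went the other way: it was strict at 0 h, 370 bp from the listed start, and passed only 1e-05 at 72 h, 693 bp from it. Slc25a13, the aspartate-glutamate carrier of the malate-aspartate shuttle, had 7 peaks at 72 h and 6 at 0 h over its 176 kb. Its strict 72 h-only peak (chr6:6100762-6101362) lay 59.8 kb inside the gene from the nearer end, 20.0 kb from the nearest 0 h summit. The paralogue Slc25a12 had a single shared start peak in each library.

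Slc25a44, linked to the uptake of branched-chain amino acids, had 3 peaks in each library. At 72 h these include a strict 72 h-only peak 5.41 kb inside the gene (chr3:88415607-88416207), which lies 5.46 kb from the neighbouring gene Pmf1. Slc25a48, linked to choline uptake, had 4 peaks in each library and was the only member with strict peaks of its own on both sides. The 72 h-only peak (chr13:56444002-56444602) lay 6.34 kb inside the gene, with its summit 0.624 kb from that of the nearest 0 h peak, so that the windows of 300 bases on either side did not touch. The 0 h-only peak (chr13:56428988-56429588) lay upstream, 9.07 kb before the start and over the noncoding gene Gm3045. Slc25a29, a carrier of basic amino acids, had a 72 h-only peak 1.92 kb inside the gene that passed only 1e-05. The glutamate carrier Slc25a22 (2 and 2 peaks at 72 h and 0 h) and the glycine carrier Slc25a38 (2 and 2) had shared peaks alone, and the ornithine carrier Slc25a2 and the glutamate carrier Slc25a18 had none.

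Both mitoferrins, the iron importers of the inner membrane that feed haem and iron-sulphur cluster synthesis, had a strict 72 h-only peak inside the gene. Over all genes with a peak, 18.6% had a strict 72 h-only peak at any place. The mitoferrin genes also had more peaks at 72 h (3 and 4) than the 2.47 per gene over all genes with a peak. Slc25a28 (mitoferrin 2) had 3 peaks at 72 h and 1 at 0 h. The shared peak lay at its start, with summits 23 and 15 bp from it at 72 h and 0 h, and both libraries passed 1e-10 there. The strict 72 h-only peak (chr19:43670535-43671135) lay 4.17 kb inside the gene, and a second 72 h-only peak at 1e-05 lay 6.71 kb outside. Slc25a37 (mitoferrin 1) had 4 peaks at 72 h and 3 at 0 h; its strict 72 h-only peak (chr14:69275815-69276415) lay 9.43 kb inside. The other 2 distal peaks of Slc25a37 were shared and passed only 1e-05 in both libraries.

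Carriers of cofactors and of nucleotides other than adenine had 31 peaks at 72 h and 23 at 0 h over 9 genes, all of which had a peak. Slc25a36, a pyrimidine nucleotide carrier, had 5 peaks at 72 h and 1 at 0 h, which form 3 sites and 1 site. The 3 that were 72 h-only lay 26.3 to 30.1 kb upstream of the gene, and the strict one (chr9:97140297-97140897) had no other protein-coding gene within 50 kb. Its paralogue Slc25a33 had 8 peaks in each library, and 6 of these 8 at 72 h and 4 at 0 h were strict. Slc25a33 differed by 1 peak at 1e-05 on each side, and 2 of its shared upstream sites, 2.94 and 15.7 kb outside, were strict at 72 h only.

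Slc25a17, which carries coenzyme A and related cofactors across the peroxisomal membrane, had 5 peaks at 72 h and 3 at 0 h. The strict 72 h-only peak (chr15:81356002-81356602) lay 4.46 kb inside the gene. Beyond the far end of the gene, summits 7.78 and 8.35 kb outside were strict at 72 h, where the 0 h library had 1 peak that passed only 1e-05. Slc25a42, a mitochondrial coenzyme A carrier, had 3 and 2 peaks at 72 h and 0 h, with a strict 72 h-only peak 9.01 kb inside (chr8:70193049-70193649). Slc25a51, the NAD carrier, and Slc25a26, the S-adenosylmethionine carrier, each had 1 72 h-only peak at 1e-05 and no strict one. Slc25a16 and Slc25a32 (folate and FAD) had gene-end peaks alone, all shared.

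**Figure D4:**
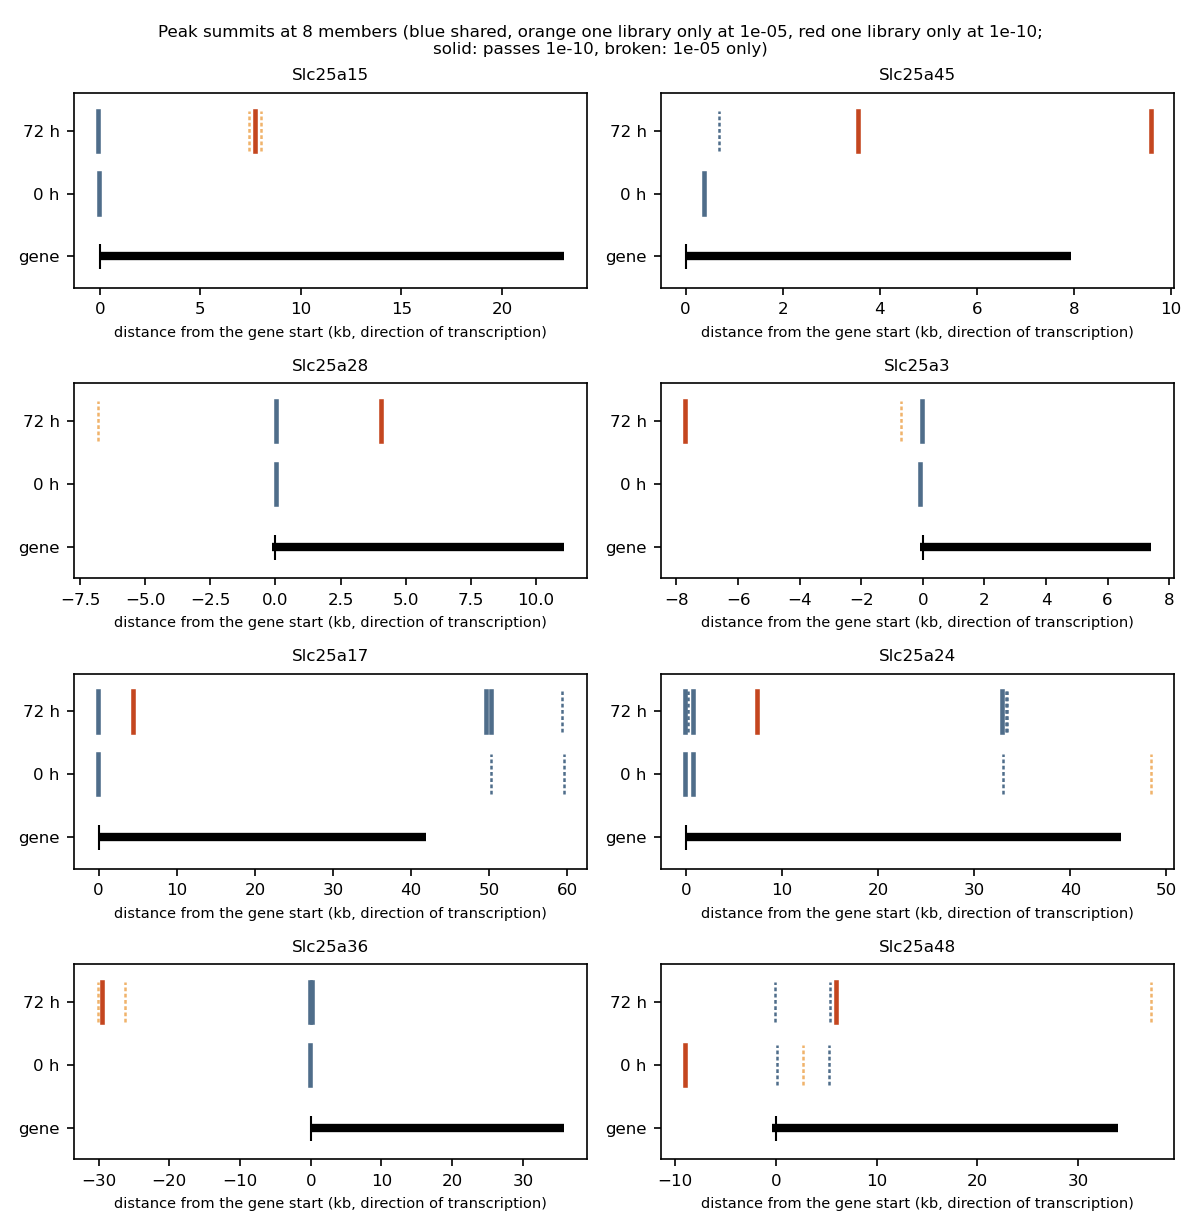
Peak summits (vertical marks) at 8 members against the distance from the most upstream listed start in kb, with the 72 h library above the 0 h library and the gene as a black bar; blue marks are shared peaks, orange and red marks are peaks of 1 library only that passed 1e-05 only or 1e-10, and solid marks passed 1e-10. Blue marks stand at the start in both libraries in each panel, and red marks stand away from the start.

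Slc25a3, the phosphate carrier that supplies ATP synthase, had 3 peaks at 72 h and 1 at 0 h. The shared one was at the start, 41 bp from it at 72 h and 88 bp at 0 h. The strict 72 h-only peak (chr10:91131402-91132002) lay 7.66 kb outside the gene, upstream of the start, with Tmpo as the next gene at 15.9 kb. The other 72 h-only peak lay 717 bp upstream of the start, 1 of the 2 gene-end peaks of the family that were 72 h-only. Slc25a20, the carnitine-acylcarnitine carrier that brings long-chain fatty acids in for oxidation, had 2 peaks in each library, all at the start and shared. The glutathione carriers Slc25a39 (3 and 3 peaks at 72 h and 0 h) and Slc25a40 (1 and 1) also had shared peaks alone.

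Among carriers that exchange adenine nucleotides, 18 peaks were listed at 72 h and 17 at 0 h. Slc25a5, the ADP/ATP carrier of proliferating tissues, had 4 peaks at 72 h and 3 at 0 h. Its strict 72 h-only peak (chrX:36804071-36804671) lay 5.56 kb outside the gene, between shared peaks at the start and 9.21 kb outside. At the gene-end site 739 bp from the start at 0 h, the 0 h peak was strict and the 72 h peak was not. Slc25a4, the ADP/ATP carrier of heart and muscle, had 1 peak at 72 h and 3 at 0 h, of which 1 at 1e-05 was 0 h-only, 31.1 kb outside. The ATP-Mg/phosphate carrier Slc25a24 had 7 and 4 peaks at 72 h and 0 h, but the order turns when overlapping peaks are merged, into 3 sites at 72 h and 4 at 0 h. Its strict 72 h-only peak (chr3:109130276-109130876) lay 7.43 kb inside, and a shared site 12.3 kb from the gene end was strict at 72 h only. Slc25a25, of the same kind, went the other way with 4 and 5 peaks, of which 3 and 4 were strict, and Slc25a23 had 1 shared peak in each library. The adjacent member Slc25a41, 2.06 kb from Slc25a23, had no peak. The single peak of Slc25a54 in each library lay beyond its far end, 36.8 kb from its closed start and toward Slc25a24.

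Di- and tricarboxylate carriers differed among themselves. Slc25a1, the citrate carrier that supplies cytosolic acetyl-CoA, had 5 peaks at 72 h and 8 at 0 h. All 5 at 72 h and 5 of the 8 at 0 h were strict, and the single 0 h-only peak, at 1e-05, lay 10.1 kb outside. Merged where they overlap, they form 4 sites at 72 h and 5 at 0 h. Slc25a10, the dicarboxylate carrier, had 6 and 4 peaks at 72 h and 0 h, which form 4 sites in each library, with a strict 72 h-only peak 8.99 kb outside the gene (chr11:120509856-120510456) and a 0 h-only peak at 1e-05 5.89 kb outside. Slc25a21, the oxodicarboxylate carrier, had 1 peak in its 485 kb, a 72 h-only peak at 1e-05 10.2 kb inside from the start. The start peak of Slc25a11, the oxoglutarate carrier, is counted at 72 h alone because the overlapping 0 h summit, 214 bp away, went to the neighbour Rnf167.

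Of the uncoupling proteins and their close relatives, none had a strict peak of 1 library only. Only 4 of the 6 genes had a peak, with 8 peaks at 72 h and 6 at 0 h. Over all genes with a peak, 18.6% had a strict 72 h-only one and 6.66% a strict 0 h-only one. A base of 4 genes is too small to set against these shares. Ucp2, the uncoupling protein that is widely expressed, had 3 peaks at 72 h and 2 at 0 h, all of them strict and shared. They stood at the start and inside the gene, 2.50 kb from its end at 72 h and 2.47 kb at 0 h. Slc25a30 had a pair of 72 h-only peaks at 1e-05 21.0 and 21.7 kb outside and a 0 h-only peak 10.6 kb inside, beside its shared start. Slc25a14 had 1 shared start peak in each library. The gene-end peak of Slc25a27 is counted at 0 h alone because the 72 h summit, 14 bp away, went to Cyp39a1.

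The remaining members had few peaks. Slc25a34 had 2 peaks at 72 h and 1 at 0 h; the shared start peak was strict at 72 h only, and the 72 h-only peak lay 626 bp from the start. Slc25a47, known as a liver carrier, had 1 peak in each library, both of 1 library only and at 1e-05, 1.54 kb inside at 72 h and 1.55 kb outside at 0 h, while its neighbour Slc25a29, 14.0 kb away, was open at its start. Slc25a35 had 2 and 1 peaks and Slc25a46 had 2 and 3 at 72 h and 0 h, all shared.

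Shared sites could still differ in whether they passed 1e-10. Of 54 shared gene-end peaks at 72 h, 44 were strict, and 1 of them had a 0 h partner that passed 1e-05 only. Of 54 at 0 h, 41 were strict and 2 of them had a 72 h partner that passed 1e-05 only. Of 35 shared distal peaks at 72 h, 24 were strict and 6 of them had a 0 h partner that passed 1e-05 only (at Slc25a13, Slc25a17, Slc25a24 and Slc25a33). Of 31 at 0 h, 18 were strict and 1 had such a 72 h partner (at Slc25a25). These counts were not made over the shared peaks of all genes. Of all assigned gene-end peaks, shared or not, 75.5% at 72 h and 73.1% at 0 h were strict. For distal peaks the shares were 53.2% and 44.5%. Summits of shared peaks nearly coincided: the median distance to the nearest summit of the other library was 28.5 bp for gene-end and 43 bp for distal 72 h peaks.

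Other genes of mitochondrial transport were listed beside the family. Of 24 genes with a peak among other mitochondrial transporters and channels, 10 had a 72 h-only peak (41.7%, against 39.9% of all genes) and 6 a 0 h-only peak (where 29.7% of all genes had one), none of these strict. A strict 72 h-only peak was present at 7 (29.2%, 12.6 to 51.1), against 18.6% of all genes. Among the genes with a strict one were Vdac1 (an outer membrane channel), Mtch2, Sfxn1 (a mitochondrial serine transporter), Mcu (the calcium uniporter pore), its regulator Micu2, and Abcb10. Sfxn1, Micu2 and Abcb10 had 2 each. Cpt1a, which makes the acylcarnitines that Slc25a20 carries, had 6 peaks at 72 h and 4 at 0 h, with 2 72 h-only peaks at 1e-05 and no strict one. The pyruvate carrier genes Mpc1 and Mpc2 had 1 shared peak each. Of 13 genes for the import of carriers into the inner membrane, 2 (Tomm70a and Tomm20, outer membrane receptors) had a strict 72 h-only peak (15.4%, against 18.6% of all genes) and none a strict 0 h-only one.

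Regulators of mitochondrial genes had 85 peaks at 72 h and 56 at 0 h over 12 genes. A strict 72 h-only peak was present at 6 of the 12 (50.0%, 21.1 to 78.9), against 18.6% of all genes, and a strict 0 h-only one at 1, Pparg. Of the 15 strict 72 h-only peaks, Hnf4g, a nuclear receptor gene of the intestinal epithelium, held 5, and Ppara, a nuclear receptor gene of fatty acid oxidation, held 4. Pparg and Hnf4a held 1 each. Ppargc1a, the coactivator of mitochondrial biogenesis, had 15 peaks at 72 h and 5 at 0 h, of which 10 were 72 h-only and 1 of these strict. Its relative Ppargc1b had 11 and 7, with 3 strict 72 h-only peaks. Nrf1, Gabpa, Esrra and Tfam were among the regulator genes with no strict 72 h-only peak, and Gabpa had 1 72 h-only peak at 1e-05. The 12 regulator genes averaged 7.08 peaks at 72 h, against 2.81 for carriers with a peak.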

How the data were processed

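The deposited files of the 72 h and 0 h libraries are lists of peak positions, with no other unit than base positions. The submitters' processing notes name the peak caller MACS2 2.2.7.1, the aligner Bowtie2 2.4.1, the trimmer cutadapt 1.9.1, and also bedtools 2.26.0, deepTools 3.5.4, Picard 2.18.27 and SAMtools 1.3.1, on mm10. Their settings, the Tn5 shift of reads among them, are not stated there. Peak names carry the time point, as calls made per library would.

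Positions were made 1-based. Genes came from the RefSeq table of GRCm38.p6, and starts, strands and start windows from RefSeq promoter windows, found for 39 of 50 members; a genome sequence was not used here, so distal sites were not searched for motifs. Genes described in full are those with a strict peak of 1 library only, a difference of 3 or more peaks, or peaks in 1 library only. Members and lists were chosen with earlier results of these data known. Of symbols that start with Ndufa, the assembly factors were left out, and Slc25a52 of the substrate list was not matched. Values of 1 member and of 1 other listed gene are not reported here by name, though the counts include them. Alternatives changed the assignment, the overlap, the thresholds and the gene-end window. The assignment and classing were tested on simulated data. Tools were SciPy 1.17.1 (intervals), pandas 2.3.3 with numpy 2.4.6 (overlaps) and matplotlib 3.10.9 (figures), under Python 3.11.15.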

Additional observations from a re-analysis of the deposited data

How the results depend on the processing

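Assignment of peaks to genes moved the counts most. When every gene within 50 kb of a peak was counted, 38 members had a 72 h-only peak and 27 a strict one, and 28 had a 0 h-only peak and 7 a strict one; this rule also counts peaks that lie nearer to or inside neighbouring genes, and all-gene shares were not recomputed for it. Within 10 kb, 13 of the 14 members kept their strict 72 h-only peak (Slc25a36 lost it), by the nearest gene end 13 (Slc25a13 lost it), and with a gap of 1 kb to any 0 h peak 13 (Slc25a48 lost it). With an overlap of more than 300 bp asked of shared peaks, 3 members had a strict 0 h-only peak, and the gene-end shares of 1 library only were 14.3% at 72 h and 10.9% at 0 h. With the 1e-10 list of the other library deciding, 4 members had a strict 0 h-only peak. With 1e-10 lists on both sides, members had 60 peaks at 0 h, and 10.5% of distal 0 h peaks were 0 h-only. A gene-end window of 500 bp left 0% of 42 gene-end 72 h peaks at 72 h only. Of 58 alternative values, 47 stayed within 1.5 times the count or within the interval of the share; the use of listed starts in place of gene ends was chosen after seeing the data. Counts of 72 h-only peaks at the 19 named members stayed so in 107 of 133 alternatives. No paired analysis was possible because each time point has 1 library. Depth limits all of these values: a site missing from 1 list may lie just under its threshold.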
